A study of Mus musculus with 158 samples.

Results

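Gm44588, 6330410L21Rik and Gm42697 are 3 of the 53715 genes in the RNA-seq tables, and they were chosen because their counts in the kidney libraries were high. GENCODE annotates each of them as an antisense noncoding gene that overlaps a protein-coding gene of the nephron on the other strand. The high kidney counts and the low counts elsewhere are therefore given as a description, with no test. The libraries came from F1 hybrids of C57BL/6J females (B6) with males of the strains SPRET/EiJ (B6xSPRET), PWK/PhJ (B6xPWK), CAST/EiJ (B6xCAST) or C3H/HeJ (B6xC3H), and the label B6x129 names the fifth cross in the same way. The mice of all 4 tissues were 8 weeks old. Kidney, liver and lung were used as whole organs, in most cases as a pool of 4 animals, so a library mixes all cell types of the organ. B cells came from femoral marrow of females, from which cells with CD43 or Mac-1/CD11b had been depleted. RNA-seq covered 17 libraries, with 4 of kidney, 4 of liver, 4 of lung and 5 of B cells. The kidney libraries were 1 of B6xC3H, 1 of B6xPWK and 2 of B6xSPRET. DNase-seq, which maps open chromatin, gave 20 hotspot sets, 1 for each of the 5 hybrids in each of the 4 tissues, with the samples of a set pooled. For CTCF, 1 ChIP-seq sample of cultured mouse embryonic stem cells (mESC), labelled B6xCAST and with no age given, was also used.

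Umod encodes uromodulin, the most abundant protein of normal urine, which the cells of the thick ascending limb of the loop of Henle make and release into the tubule. Egf encodes the precursor of epidermal growth factor, a membrane protein that the kidney makes in the thick ascending limb and the distal convoluted tubule. Antisense noncoding genes are transcribed from the strand opposite to a coding gene, and a read can be assigned to 1 of the 2 strands only where the library keeps the strand and the counting is told which strand the reads come from. The libraries were made with a strand-keeping total RNA kit. The strand setting of the counting is not given in the sources used here, so for exonic bases that a noncoding gene shares with a coding gene, the counts of the tables cannot be told apart by their transcript of origin.

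Gm44588 (ENSMUSG00000109254) spans bases 119462821 to 119472478 of chromosome 7 (mm10, forward strand), inside Umod (reverse strand, 119462711 to 119479282). Of its 545 exonic bases, 539 (98.9%) lie in Umod exons. Its annotated start is 16461 bp from that of Umod, near the 3′ end of Umod. 6330410L21Rik (ENSMUSG00000105960) spans bases 129753758 to 129763884 of chromosome 3 (forward strand), across the start of Egf (reverse strand, 129677565 to 129755316). Of its 3871 exonic bases, 500 (12.9%) lie in Egf exons, all of them in exon 2 of the noncoding gene and the first exon of Egf. Its start and that of Egf are 1558 bp apart. Gm42697 (ENSMUSG00000106120) lies inside Egf on the same strand as 6330410L21Rik, from 129728845 to 129740188. Of its 4092 exonic bases, 607 (14.8%) lie in Egf exons, again all in its exon 2, which holds 3 whole coding exons of Egf. Read along the members' own strand, 7 of 7 annotated introns of the 3 genes begin with GT and end with AG, the usual intron ends.

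The sequences of shared exons show how the gene models lie on each other. They are given 5′ to 3′ on the forward strand, from the GRCm38.p6 assembly (mm10), with bases inside exons of the coding gene in capitals.
Gm44588 exon 2, chr7:119471383-119471476, forward strand: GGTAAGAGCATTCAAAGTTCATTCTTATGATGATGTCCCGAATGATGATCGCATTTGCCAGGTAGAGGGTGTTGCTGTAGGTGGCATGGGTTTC
Gm44588 exon 3, chr7:119472326-119472478, forward strand: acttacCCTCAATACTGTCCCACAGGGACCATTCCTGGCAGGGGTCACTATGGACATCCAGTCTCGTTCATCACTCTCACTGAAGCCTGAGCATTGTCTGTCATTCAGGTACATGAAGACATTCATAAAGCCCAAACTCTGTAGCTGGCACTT
Gm42697 exon 2, an Egf exon with 20 bases either side, chr3:129737375-129737596, forward strand: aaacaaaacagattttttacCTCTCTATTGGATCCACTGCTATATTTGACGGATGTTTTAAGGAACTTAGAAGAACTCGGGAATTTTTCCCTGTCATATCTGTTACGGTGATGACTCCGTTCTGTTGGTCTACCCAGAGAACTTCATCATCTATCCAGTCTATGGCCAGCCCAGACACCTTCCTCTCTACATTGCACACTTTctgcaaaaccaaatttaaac
Exon 2 of Gm44588 lay whole within a coding exon of Umod, with 94 of 94 bases in capitals, and exon 3 did so for 147 of 153 bases. In Gm42697, the part shown holds 182 bases of an Egf exon, while the rest of its exon 2, 3998 bases long, lies mostly in Egf introns.

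The sequences around the annotated starts are shown because they carry the hotspot results given further on. RefSeq start regions, 250 bases before and 50 bases after a start, were at hand for Umod, Egf and 1 of the 3 noncoding genes. Each is written 5′ to 3′ along its gene's own strand on GRCm38.p6, with bases that lay in a hotspot in all 5 kidney sets in capitals.
Umod start region, chr7:119479213-119479512, reverse strand: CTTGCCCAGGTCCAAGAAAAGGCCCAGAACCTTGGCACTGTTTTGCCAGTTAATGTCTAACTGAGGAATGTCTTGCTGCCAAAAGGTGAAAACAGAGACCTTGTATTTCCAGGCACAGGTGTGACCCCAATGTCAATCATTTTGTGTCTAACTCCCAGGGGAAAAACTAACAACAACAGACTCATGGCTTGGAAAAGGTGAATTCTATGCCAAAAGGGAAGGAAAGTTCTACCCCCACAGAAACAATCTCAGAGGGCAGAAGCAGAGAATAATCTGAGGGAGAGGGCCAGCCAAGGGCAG
Egf start region, chr3:129755273-129755572, reverse strand: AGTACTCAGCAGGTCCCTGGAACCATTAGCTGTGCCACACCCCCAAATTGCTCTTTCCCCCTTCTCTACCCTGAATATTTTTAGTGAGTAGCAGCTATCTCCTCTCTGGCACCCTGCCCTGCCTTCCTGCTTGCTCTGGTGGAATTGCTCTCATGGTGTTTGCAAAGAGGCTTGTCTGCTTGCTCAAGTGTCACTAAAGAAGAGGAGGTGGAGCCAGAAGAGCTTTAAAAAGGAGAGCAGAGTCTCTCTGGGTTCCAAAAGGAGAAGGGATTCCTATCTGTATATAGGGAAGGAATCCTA
6330410L21Rik start region, chr3:129753508-129753807, forward strand: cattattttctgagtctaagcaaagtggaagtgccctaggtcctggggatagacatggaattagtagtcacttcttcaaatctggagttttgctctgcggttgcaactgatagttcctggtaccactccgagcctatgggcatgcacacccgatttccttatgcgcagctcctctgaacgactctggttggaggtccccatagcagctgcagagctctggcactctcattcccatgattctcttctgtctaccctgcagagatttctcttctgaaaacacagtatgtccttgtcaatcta
All 300 bases of the Umod region and all 300 of the Egf region lay in hotspots of all 5 kidney sets, against 0 of 300 in the 6330410L21Rik region. Among 32583 RefSeq start regions, 30.5% lay whole in hotspots of all 5 kidney sets and 53.3% had no such base. On both strands, the letters CCAAT had 1 match in the Umod region and stand in 37.4% of all RefSeq start regions, while TATAAA had no match in any of the 3 and stands in 13.6%. These letters were picked after the sequences had been seen.

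In the kidney, Gm44588 had an expected count of 4944 in B6xC3H, 8815 in B6xPWK, 4559 in B6xSPRET replicate 1 and 2828 in B6xSPRET replicate 2. The expected count is the number of reads that RSEM, the counting program, assigned to a gene, with no normalization. In the other 13 libraries together it had 4 counts, of which 1 was in the B6xC3H lung library and 3 were in B6xPWK B cell replicate 2, and liver had 0 counts in 4 libraries. Kidney and other libraries did not overlap, as for 1.73% of all genes with a count, and nothing is read from this since the members were chosen on it. On the CPM scale, which divides counts by the total of the library, kidney held 10636 ± 4662 (SD, n = 4), and the pooled kidney level was 14073 times that of the other tissues (95% exact interval of the counts, 5496 to 51654). Intervals on counts cover counting error only. Per transcript length, it held 16076 to 43937 TPM, which placed it among the 12 highest genes by TPM in each kidney library.

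6330410L21Rik had 4699 counts in the B6xC3H kidney, 6281 in B6xPWK, 3777 in B6xSPRET replicate 1 and 3764 in B6xSPRET replicate 2. The 13 other libraries held 21 counts, with 1 in liver, 11 in lung and 9 in B cells, and 8 of the last in B6xPWK B cell replicate 2. Each of the 4 lung libraries had 1 to 4 counts, so lung was the tissue in which counts outside the kidney were found in every library. Kidney held 9353 ± 1893 CPM (SD, n = 4), 2348 times the pooled level of the other tissues (1535 to 3794) and 1312 times that of lung (733 to 2628). On the TPM scale the kidney libraries ranged from 2178 to 3204.

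Gm42697 had 4858 counts in the B6xC3H kidney, 4411 in B6xPWK, 3116 in B6xSPRET replicate 1 and 3261 in B6xSPRET replicate 2. Elsewhere it had 16 counts, 5 of them in liver, 5 in lung and 6 in B cells. Its kidney level, 7871 ± 941 CPM (SD, n = 4), was the most even of the 3, with a coefficient of variation of 11.95%, against 20.2% for 6330410L21Rik and 43.8% for Gm44588. The pooled ratio of kidney to the other tissues was 2603 (1603 to 4555), and TPM ran from 1781 to 2163 in the kidney. Without B6xPWK B cell replicate 2, which held 16 of the 41 member counts outside the kidney, the pooled ratios were 51482 for Gm44588 (9239 to 2033500, against 1 count), 3469 for 6330410L21Rik (2028 to 6516) and 3463 for Gm42697 (1935 to 6938). In every kidney library, the 3 genes ranked between 5 and 26 among all genes by expected count, and together they took 2.11% to 3.78% of all counts.

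The plot of counts by library sets each noncoding gene beside the coding gene on its other strand.

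**Figure D1:**
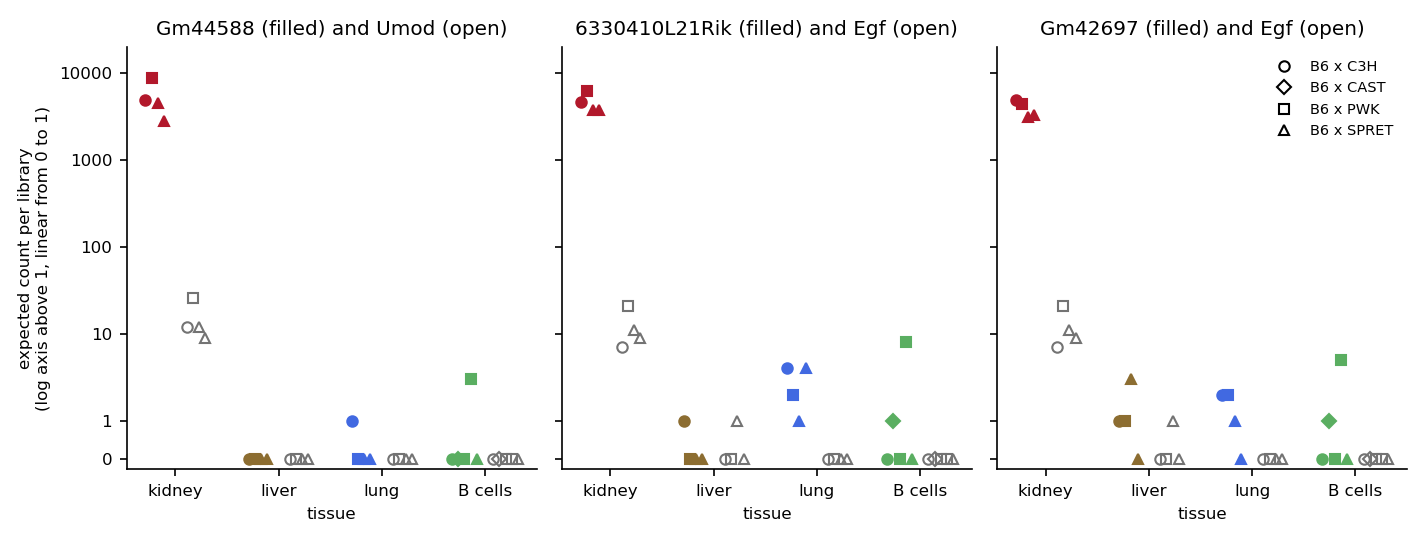
Expected counts in the 17 RNA-seq libraries of Gm44588, 6330410L21Rik and Gm42697 (filled) and of Umod or Egf on the other strand (open), by tissue and with 1 point per library. The kidney libraries hold 2828 to 8815 counts of the noncoding genes and 7 to 26 of the coding genes, and no other library holds more than 8 of any.

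Far fewer counts were assigned to the coding genes than to the noncoding genes that overlap them. Whether the counting took the strand opposite to the transcripts was not tested, so these counts do not rank the RNA levels of both strands. Umod had 12 counts in the B6xC3H kidney, 26 in B6xPWK, 12 in B6xSPRET replicate 1 and 9 in B6xSPRET replicate 2. It had 0 counts in all 13 other libraries, so its kidney level was at least 52.4-fold higher than that of the other tissues, set against a floor of 3 counts over those libraries. Egf had 7, 21, 11 and 9 counts in the same order of kidney libraries and 1 count elsewhere, in B6xSPRET liver replicate 1. Its pooled ratio was 128 (21.9 to 5151). A further antisense gene inside Egf, Gm42650 (chromosome 3, 129745340 to 129750168), shares no exonic base with Egf, and it had 18, 17, 6 and 16 counts in the kidney and 0 elsewhere, at least 50.6-fold higher.

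Umod, Egf and Gm42650 did not pass the low-count filter of the edgeR fit, and kidney lay above every other library for each. Gm42650 was named after its values were seen and gets no test. For Umod and for Egf, an exact permutation test of CPM, 4 kidney libraries against 13 others and two-sided, gave p = 0.00042017, the smallest p that 2380 assignments allow. This test was added after their counts had been seen, so it restates that the groups do not overlap. Without the filter, edgeR's quasi-likelihood test gave a log2 fold change of 7.01 for Umod (adjusted p = 6.574e-20) and 5.95 for Egf (adjusted p = 1.0805e-15), with kidney higher in 4 of 4 libraries. Both genes entered that fit almost only through their kidney counts, so these p-values too restate that the groups do not overlap. The unfiltered fit called 2397 genes higher in kidney. The labels do not say that samples of a group are separate animals, so p-values on RNA-seq measure the spread between these samples, which may be technical. In whole tissue, fewer cells of a type and less RNA per cell cannot be told apart.

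Of the counts that fell on Gm44588 or Umod in the kidney, Gm44588 took 99.7% ± 0.033 (SD, n = 4), and the lowest 95% Wilson bound of any library was 99.4%. For 6330410L21Rik against Egf the share was 99.7% ± 0.079, and for Gm42697 against Egf it was 99.7% ± 0.14. In no kidney library was a share under 99.5%. Such a split was common in these tables. Among 791 pairs of a noncoding and a protein-coding gene that share exonic bases on opposite strands and had at least 100 kidney counts, the noncoding gene had more counts in 83.1%, and it took over 99% of the counts in 25.7%. Shares at or above that of Gm44588 were found in 12.6% of these pairs, at or above that of 6330410L21Rik in 12.01% and at or above that of Gm42697 in 13.5%.

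The members differed widely in length and little in counts, so counts were set against bases. Over the 4 kidney libraries, Gm44588 had 38.8 counts per exonic base, 6330410L21Rik had 4.78 and Gm42697 had 3.82, a spread of 10.2 times from highest to lowest. Divided by only those exonic bases that lie in exons of the coding gene, the values were 39.2, 37.0 and 25.8, a spread of 1.52 times. This second division takes all counts of a gene to lie in its shared bases. For Gm44588 it changes little by construction, since 539 of its 545 exonic bases are shared. Gm44588 also lies at another coding gene than the other members, so nothing is read from the narrower spread. Gm42650, the antisense gene with no shared exonic base, had 0.099 counts per exonic base. By library, counts per shared base ran from 5.25 to 16.4 for Gm44588, from 7.53 to 12.6 for 6330410L21Rik and from 5.13 to 8.00 for Gm42697, and the ranges of the 3 genes overlapped. Within a library the highest of the 3 was 1.17 times the lowest in B6xC3H, 2.25 times in B6xPWK, 1.65 times in B6xSPRET replicate 1 and 1.43 times in B6xSPRET replicate 2. 6330410L21Rik lay above Gm42697 per shared base in 4 of 4 kidney libraries. The tables hold no positions of reads, so where in each gene the counts lay was not tested.

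**Figure D2:**
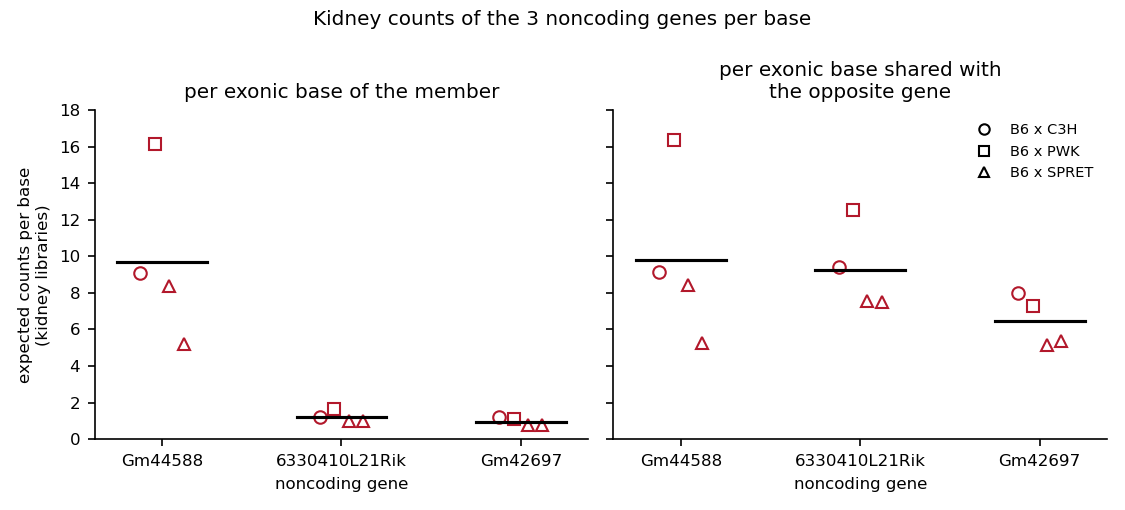
Expected counts in the 4 kidney libraries per exonic base of each noncoding gene (left) and per exonic base shared with Umod or Egf (right), with 1 point per library and the mean as a line. On the left Gm44588 lies between 5.19 and 16.2 and the other genes under 1.63, while on the right the 3 genes overlap.

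In the edgeR fit of all 17 libraries, the log2 fold change of kidney over the mean of the other tissues was 14.33 (SE 0.53) for Gm44588, 11.84 (SE 0.51) for 6330410L21Rik and 11.44 (SE 0.44) for Gm42697. Each SE of an edgeR fit was derived as the absolute log2 fold change divided by the square root of the test's F statistic. Gm44588 had 4 counts in the 13 other libraries and 0 in liver, so its fold change is less certain than its SE implies. Of the 4479 genes tested, 23.2% were called higher in the kidney at an adjusted p under 0.05. The 3 members were the genes with a log2 fold change above 11, which is 0.067% of the genes tested, and nothing is read from this count, since the members were chosen on it. All 3 were tested for a difference between hybrids, a contrast that the choice did not use.

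Gm44588 was highest in B6xPWK, with 17079 CPM, then B6xSPRET replicate 1 with 10428, B6xC3H with 8968 and B6xSPRET replicate 2 with 6069. The 2 B6xSPRET libraries lay on either side of the B6xC3H library. With tissue in the model, the log2 difference of B6xSPRET from B6xPWK was -1.07 (SE 0.62, 95% interval -2.35 to 0.22, edgeR adjusted p = 0.446), and that of B6xPWK from B6xC3H was 0.84 (-0.63 to 2.31, edgeR adjusted p = 0.668). For 6330410L21Rik, B6xPWK again had the highest kidney level, 12169 CPM against 8078 to 8640 in the other 3 libraries, and the log2 difference of B6xSPRET from B6xPWK was -0.63 (-1.94 to 0.67, edgeR adjusted p = 0.709). For Gm42697 the order was B6xC3H with 8812 CPM, B6xPWK with 8546 and the B6xSPRET libraries with 7128 and 6999, and its log2 differences between hybrids lay between -0.50 and 0.29. None of the 3 genes was called in any of the 3 contrasts by edgeR at an adjusted p under 0.05 (none had an unadjusted p under 0.05 either). Of 4303 genes tested, 2% were called between B6xSPRET and B6xPWK, 2.21% between B6xSPRET and B6xC3H and 1.09% between B6xPWK and B6xC3H. With 1 or 2 kidney libraries a hybrid, the intervals allow changes of more than 2-fold.

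The members also moved relative to each other. The ratio of 6330410L21Rik to Gm42697 counts, the 2 genes at Egf, was 0.967 in B6xC3H, 1.42 in B6xPWK, 1.21 in B6xSPRET replicate 1 and 1.15 in B6xSPRET replicate 2. The ratio of Gm44588 at Umod to the sum of both was 0.517, 0.824, 0.661 and 0.403 in the same order. The 2 B6xSPRET libraries therefore differed from each other by more in the second ratio than in the first.

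By the Pearson correlation of log2 CPM over the 17 libraries, the genes other than the members most like Gm44588 were Pfn3 (r = 0.998), Gm13415 (r = 0.998) and Gm47951 (r = 0.996), among 4476 genes. Pfn3 shares exonic bases with Slc34a1, the sodium-phosphate cotransporter of the proximal tubule, on the other strand, and Gm13415 with Pax8, a transcription factor of the nephron. Most like 6330410L21Rik were Slc29a3 (r = 0.993), Gm15879 (r = 0.993), which shares exonic bases with Dnase1, and Pfn3 (r = 0.992). Most like Gm42697 were Pfn3 (r = 0.991), Gm13415 (r = 0.990) and Pou3f3 (r = 0.990), a transcription factor of the thick limb and distal nephron. Among themselves, the members had r from 0.988 to 0.994. The points are libraries of 4 tissues, so these values mostly reflect a level that is high in kidney and near 0 elsewhere, and they are given as a description.

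The same split of the strands was looked for at 49 marker genes of the nephron. They were chosen from textbook knowledge, but with earlier results of these data known, so the list is not independent of the data. Of these, 13 share exonic bases with a gene on the other strand, and at 11 of the 13 (84.6%) the gene on the other strand had more kidney counts than the marker gene. Without the pairs of Umod and Egf, which hold members, it did so at 9 of 11 (81.8%). Both shares are near the 83.1% of all pairs given above, so nothing particular to the nephron markers is read from them. Examples beside Umod and Egf were Slc5a2, the sodium-glucose cotransporter of the early proximal tubule, with a mean of 147 CPM against 7856 for BC017158, and Slc27a2, a fatty acid transporter, with 61.8 CPM against 10548 for Gm26697. Slc22a12, the urate transporter, had 15.6 CPM against 14959 for Nrxn2, and Slc34a1 had 20.6 CPM against 625.5 for Pfn3. At Cldn19, a claudin of the thick limb, the partner had no more than 1 count in any kidney library. With Gm44588 and Gm42697 left out, the 11 other genes on the other strand summed to 35458 to 43009 CPM in the kidney libraries. Outside the kidney they summed to 3274 to 10805 CPM in liver, 417 to 511 in lung and 302 to 613 in B cells.

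**Figure D3:**
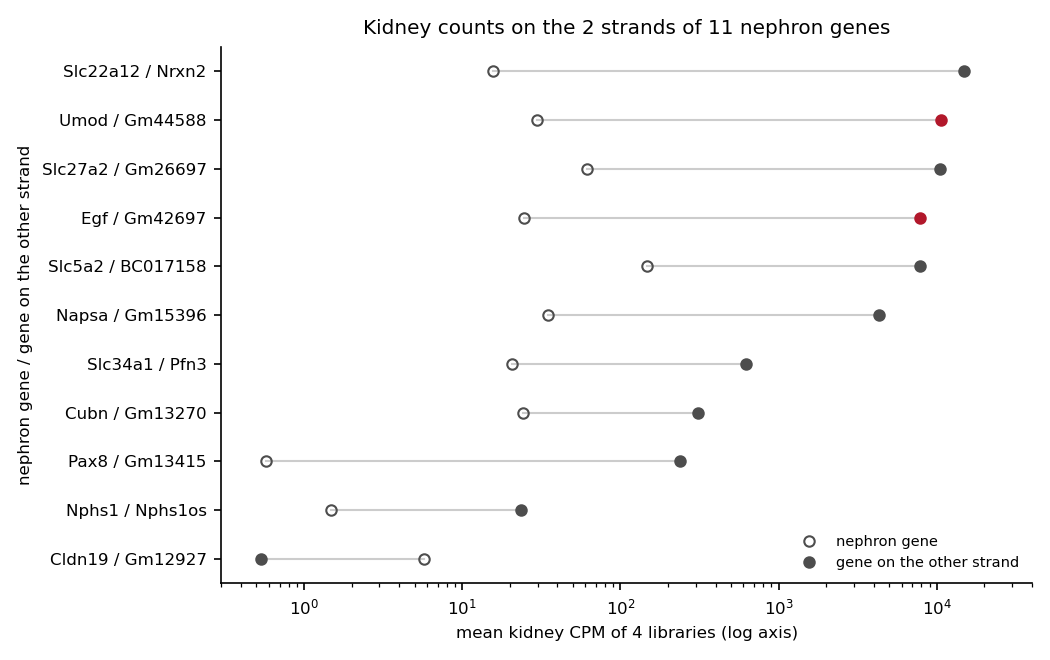
Mean kidney CPM of 4 libraries for 11 of the 13 nephron marker genes that share exonic bases with a gene on the other strand (open) and for that gene (filled, red for Gm44588 and Gm42697), on a log axis. At 10 of the 11 pairs shown the filled point lies to the right of the open one.

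On the markers' own strand, 11 of the 49 genes passed the filter and the other 38 were not tested. Of the 11, 9 were called higher in the kidney (edgeR adjusted p under 0.05, against 23.2% of all genes tested), 0 lower, and 2 were not called. Some of the 9, such as Lrp2, Kap and Acsm2 with at most 1 or 2 counts in any other library, passed the filter through their kidney libraries alone, so nothing is read from this count. In the proximal tubule list the called genes with the highest kidney level were Acsm2, Lrp2 (megalin, the receptor that takes up filtered protein), Gpx3 (plasma glutathione peroxidase) and Kap (an androgen-regulated kidney protein), with log2 fold changes of 8.41, 6.13, 4.79 and 7.86. Podxl, a podocyte surface protein, had a log2 fold change of 1.38, with 11 to 32 counts in the kidney libraries and up to 35 in another library. None of the 7 thick-limb markers passed the filter, Umod and Egf among them, and 1 of 6 distal and 0 of 8 collecting-duct markers did. In the kidney libraries, 6 liver markers summed to 3.63 to 48.0 CPM and 6 lung markers to 0 to 5.81 CPM, against 546 to 3396 CPM in liver and 224 to 501 CPM in lung. Markers of B cells summed to 0 to 4.58 CPM in the kidney and 109 to 157 CPM in B cells.

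Open chromatin at the loci was compared across tissues in the 20 hotspot sets, in windows of 2 kb either side of each annotated start. Within 2 kb of the Umod start, hotspots covered 649 bp in the B6xSPRET kidney, 737 in B6x129, 756 in B6xC3H, 927 in B6xPWK and 939 in B6xCAST. In liver they covered 0, 489, 300, 605 and 254 bp in the same order, and in lung and B cells 0 bp in every hybrid. Kidney covered more than each other tissue in 5 of 5 hybrids, and kidney exceeded the mean of the other tissues by 692 bp (exact permutation test within hybrids, two-sided, p = 0.00097656, the smallest that 1024 assignments allow, and 0.021012 adjusted over 42602 gene starts). Among all gene starts, 5.85% were called higher in kidney by this test and 4.71% were covered most in kidney in 5 of 5 hybrids.

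At the start of Gm44588 the order was another. Hotspots covered 0 bp in the B6x129 and B6xSPRET kidneys, 51 in B6xC3H, 216 in B6xPWK and 480 in B6xCAST, against 278 to 591 bp in liver and 0 bp in lung and B cells. Liver covered more than kidney in 4 of 5 hybrids, and kidney differed from the mean of the other tissues by 14.8 bp (exact permutation p = 0.927). Hotspots covered the annotated first base of Gm44588 in 0 of 20 sets. They covered that of Umod in 5 of 5 kidney sets, 4 of 5 liver sets and no set of lung or B cells.

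Within 2 kb of the start of Gm42697, kidney sets had 203 to 281 bp in hotspots and liver sets 445 to 1022 bp, while lung sets had 0 to 257 bp and B cell sets 0 to 409 bp. The difference of kidney from the mean of the others was -75.9 bp (exact permutation p = 0.590), and liver was above kidney in 5 of 5 hybrids. The first base of Gm42697 lay in a hotspot in 1 of 20 sets, the B6xSPRET liver.

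The windows at the starts of 6330410L21Rik and Egf share most of their bases. In the first, hotspots covered 1154 to 1761 bp in kidney, 1377 to 2166 bp in liver, 75 to 944 bp in lung, and B cells had 0 bp. Kidney exceeded the mean of the others by 813 bp (exact permutation p = 0.0557, 0.319 adjusted over all gene starts). In the window at Egf, kidney had 925 to 1254 bp and liver 1077 to 1872 bp, and the difference was 517 bp (exact permutation p = 0.110, 0.454 adjusted). Kidney lay above lung and B cells in 5 of 5 hybrids in both windows, and above liver in 2 of 5 for 6330410L21Rik and in 3 of 5 for Egf. The first base of Egf lay in a hotspot in 5 of 5 kidney, 1 of 5 liver, 3 of 5 lung and 0 of 5 B cell sets. That of 6330410L21Rik did so in 1 of 20 sets, the B6x129 liver.

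**Figure D4:**
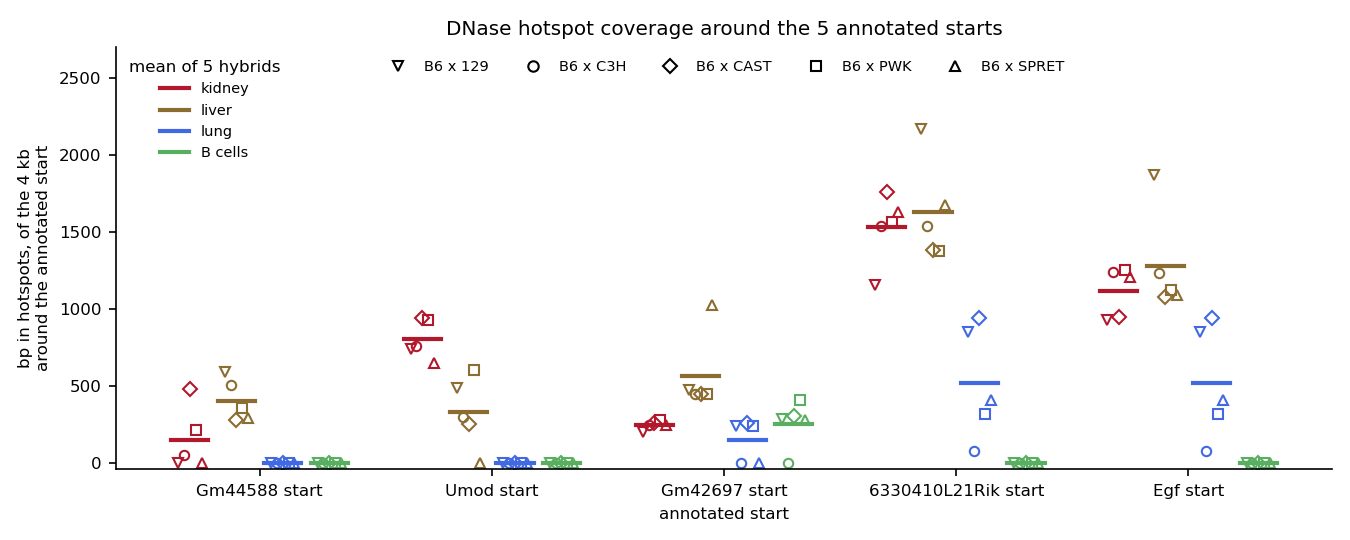
Base pairs covered by DNase hotspots within 2 kb either side of 5 annotated starts, by tissue (colour) and hybrid (symbol), with the mean of 5 hybrids as a line. At Umod every kidney set (649 to 939 bp) lies above every liver set (0 to 605 bp), while at Gm44588 and Gm42697 the liver mean lies above the kidney mean.

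Hotspots that overlap each other across the 20 sets were joined into sites. In the Umod locus, a site 4902 bp before the Umod start (chr7:119484184-119484574) held a hotspot in 5 of 5 kidney sets and in no other set. Its middle 300 bases, all within the part common to the 5 kidney sets, are shown since this site was found in kidney sets alone, written on the forward strand of GRCm38.p6.
site before Umod, chr7:119484238-119484537, forward strand: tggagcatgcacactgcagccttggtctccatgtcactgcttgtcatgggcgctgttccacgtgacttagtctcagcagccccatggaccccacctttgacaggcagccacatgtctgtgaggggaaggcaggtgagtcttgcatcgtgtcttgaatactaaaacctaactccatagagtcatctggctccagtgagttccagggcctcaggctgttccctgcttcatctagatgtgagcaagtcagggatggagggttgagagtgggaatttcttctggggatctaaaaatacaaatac
Neither CCAAT nor TATAAA stood in it on either strand. Within the Gm44588 gene itself, the site found in most sets was a liver site (chr7:119463619-119464045) in 5 of 5 liver sets and 0 of 15 others, in the first intron of Gm44588. A site within Umod (chr7:119476467-119477029) was open in 5 kidney, 4 liver and 2 lung sets and held a CTCF peak in the cultured B6xCAST mESC sample.

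At Egf, a site 485 bp wide (chr3:129697722-129698206) was found in 5 of 5 kidney and 4 of 5 B cell sets and in no liver or lung set. A site in the first intron of Egf, 2629 bp past its start (chr3:129751567-129752687), was found in 5 kidney and 5 liver sets and no other. Within 6330410L21Rik, a site (chr3:129758673-129759186) was found in 5 of 5 liver sets alone. No site within Gm42697 was found in kidney sets alone in more than 1 hybrid. Over the whole span of Umod with Gm44588, kidney sets had 746 ± 312 bp in hotspots (SD, n = 5) and liver 577 ± 212, lung 98.4 ± 152 and B cells 34.8 ± 47.8, a difference of 509 bp between kidney and the mean of the others (exact permutation p = 0.0048828, not adjusted). Over the span of Egf with 6330410L21Rik the difference was 1010 bp (exact permutation p = 0.427), and liver had the most, with 7516 ± 1973 bp (SD, n = 5).

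**Figure D5:**
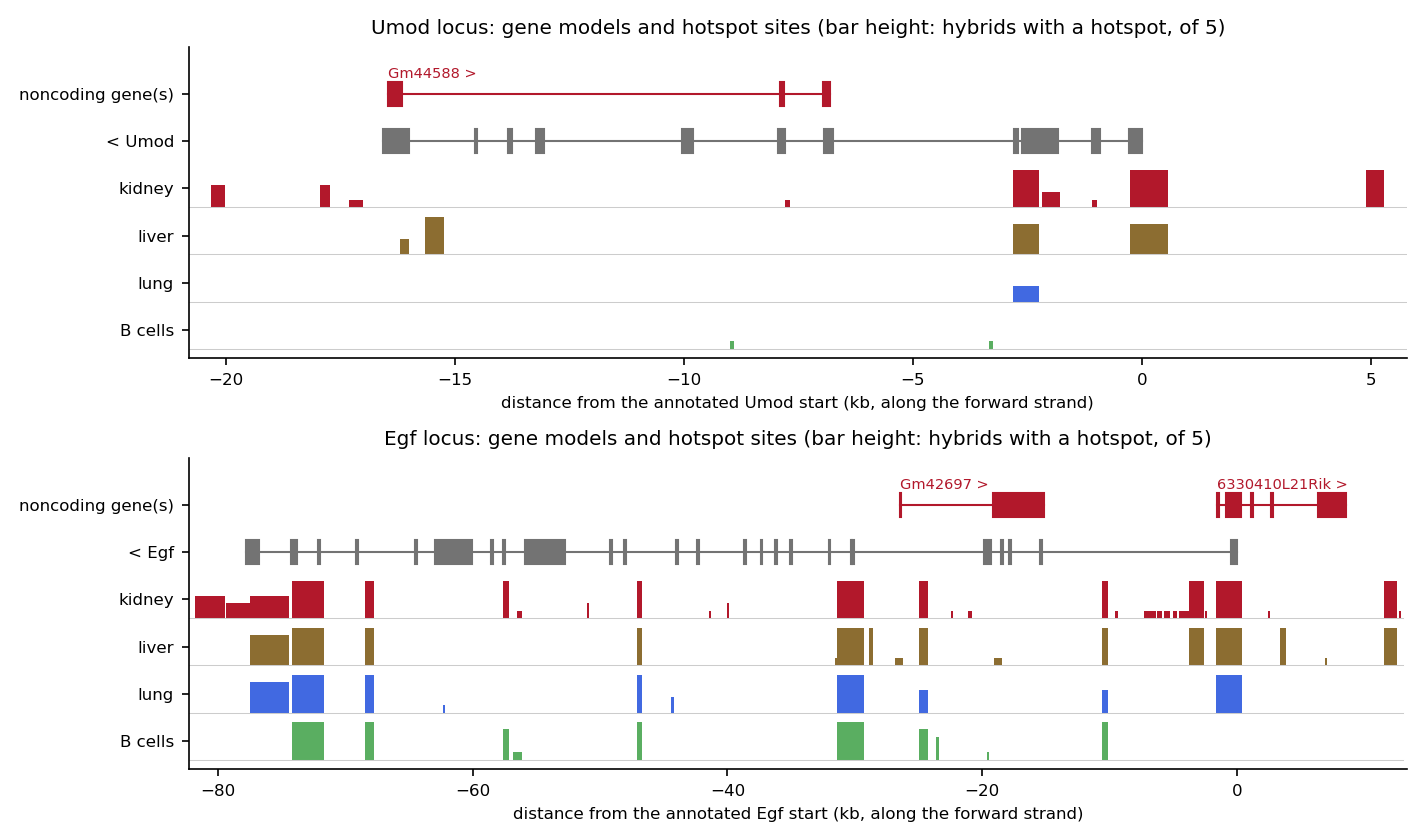
Gene models and hotspot sites at the Umod (top) and Egf (bottom) loci by distance from the coding gene's annotated start, with boxes for exons and bars whose height is the number of hybrids, of 5, with a hotspot. A kidney site stands 4902 bp before Umod, and liver sites stand inside Gm44588 and 6330410L21Rik.

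Across the 49 nephron marker genes, kidney coverage at the start was called higher at 23 (against 5.85% of all gene starts), was lower at 0 and was highest of the 4 tissues, by the mean of 5 hybrids, at 30. Liver was highest at 10, lung at 5 and B cells at 4. In the thick-limb list, 4 of 7 starts were called: Umod, Kcnj1 (the potassium channel ROMK), Cldn16 and Cldn19 (claudins of the paracellular cation pathway). Kcnj1 had a mean of 465 bp in kidney and Cldn19 1265 bp, with 0 bp in each other tissue. The median difference of kidney from the other tissues over the 49 starts was 497 bp. Of 18 liver, lung and B cell markers, 0 were called higher in kidney, and coverage was highest in liver for 6 of 6 liver markers, in lung for 6 of 6 lung markers and in B cells for 5 of 6 B cell markers.

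Low totals in the RNA-seq tables limit these values. For each RNA-seq library, the paper lists far more nonredundant reads than the table holds counts, and the reason was not tested. The tables summed to 437171 to 551273 expected counts per kidney library, 283725 to 322257 in liver, 380115 to 387504 in lung and 285191 to 809337 in B cells, and a count of 0 in a liver library allows up to 3 counts. The hotspot sets held 186061 to 238917 hotspots in kidney, 211762 to 295565 in liver, 152006 to 281978 in lung and 78387 to 156078 in B cells. B cells had the fewest hotspots, and the part this plays in their values of 0 bp was not tested.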

How the data were processed

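RNA-seq was measured in 17 samples and DNase-seq in samples pooled into 20 hotspot sets, grouped by hybrid and tissue as the labels give them. Per the labels, reads were trimmed and mapped to mm10 with STAR (RNA-seq) or BWA (DNase-seq). The authors counted RNA-seq reads with RSEM, and the deposited tables give an expected count, not normalized, and a TPM per gene and sample. The strand option and the annotation given to RSEM are not given in the sources used here. The authors called hotspots with hotspot2 at FDR 5% on pooled samples, and the deposited sets give position and −log10 of the FDR. The noncoding genes and all gene lists were chosen with earlier results of these data known.

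Gene models came from GENCODE vM21 (symbols for 53620 of 53715 gene IDs). The opposite gene was the one on the other strand with the most shared exonic bases. The quasi-likelihood test of edgeR (TMM, filterByExpr, Benjamini-Hochberg, threshold 0.05) was run on expected counts rounded to whole numbers: kidney against the mean of the other tissues in 17 libraries, and 3 contrasts of hybrids in 16 libraries with tissue as a covariate. The B6xCAST B cell library was left out of the latter, since its hybrid differs between the sources. Likeness used log2 CPM with a prior count of 2. Hotspot coverage was tested by an exact permutation within hybrids, adjusted over all 42602 gene starts in place of the few windows first planned. Hotspot sets pool replicates, so hybrids served as repeats. Named genes were the members, their opposite genes, the 3 most alike genes per member, and of each nephron list up to 4 called genes with the highest kidney CPM. Others named (Gm42650, and the nephron markers of the strand and hotspot comparisons) were chosen after their values were seen. Both tests were tested on simulated data. Alternatives were DESeq2, its size factors, limma on log2(TPM + 1), no low-count filter, hotspots at FDR 1% or the 75000 highest-scoring, windows of 1 and 5 kb, and leaving out libraries or hybrids. The exact test of Umod and Egf, the ratios without 1 B cell library and the kidney fit with hybrid as a block were added after seeing the data. Sequences were read from GRCm38.p6 and credited to RefSeq. R 4.3.3 was used with limma 3.58.1, DESeq2 1.42.0 and edgeR 4.0.16, and Python 3.11.15 with pyfaidx 0.9.0.4, pandas 2.3.3, scipy 1.17.1 and numpy 2.4.6. A few named genes and 1 motif of the lists searched are not reported here.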

Additional observations from a re-analysis of the deposited data

Results flagged for a closer look

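In groups of 4 or 5 values, 8 values stood apart from the rest of their group by Dixon's criterion at 95%, among 47 groups compared, where chance flags about 1 in 20 groups of normally spread values. That rate does not hold for counts near 0. Where all other values of a group are 0, any single value above 0 is flagged by construction. B6xPWK B cell replicate 2 stood above the other 4 B cell libraries for all 3 noncoding genes, with 6.69 CPM of Gm44588 against 0, 17.9 CPM of 6330410L21Rik against 0 to 1.77, and 11.2 CPM of Gm42697 against 0 to 1.77. These are 3, 8 and 5 counts. In the same library, 11 other genes that lie opposite nephron markers summed to 462 CPM, within the range of 302 to 613 CPM of the other B cell libraries, and 133 other genes with a kidney log2 fold change above 5 summed to 1102 CPM, within 793 to 1166. The part that kidney RNA plays in this library was not tested. In the kidney, 6330410L21Rik stood high in B6xPWK, at 12169 CPM against 8078 to 8640. Gm44588 stood high in the B6xC3H lung at 2.58 CPM and 6330410L21Rik in the B6xC3H liver at 3.10 CPM, which are 1 count each, against 0 in the other libraries of the tissue. In the hotspot sets, the B6xSPRET liver covered 1022 bp at the Gm42697 start against 445 to 473 bp in the other liver sets, and the B6x129 liver 1872 bp at the Egf start against 1077 to 1232 bp.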

How the results depend on the processing

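The kidney level of the 3 noncoding genes kept its direction under all alternatives tried, with log2 fold changes from 13.74 to 14.47 for Gm44588, 10.48 to 11.93 for 6330410L21Rik and 10.22 to 11.54 for Gm42697. In the hybrid contrasts, no member was called under any alternative (adjusted p 0.377 to 1), and Gm42697 changed sign in B6xSPRET against B6xC3H without the B6xC3H kidney library, to 0.25. Gm44588 took 99.96% of its locus by TPM. Counts of called genes over the whole table moved more, and the cause was not tested. Kidney-higher genes numbered 1039 (2397 with no low-count filter) and kidney-lower genes 417 (680 by DESeq2, 963 by limma on log2(TPM + 1)). For B6xPWK against B6xC3H, 30 higher and 17 lower genes became 46 and 32 by DESeq2, 17 and 3 by limma, 115 and 76 with no filter, and 15 to 30 and 10 to 18 without single kidney libraries (15 higher and 10 lower without B6xPWK, 16 higher without B6xC3H). For B6xSPRET against B6xC3H, 62 and 33 became 39 and 4 by limma, 152 and 60 with no filter, and 43 to 56 and 18 to 28 without single libraries (21 lower without B6xSPRET replicate 1, 18 without replicate 2). For B6xSPRET against B6xPWK, 46 and 40 became 19 higher by limma, 133 and 115 with no filter, and 29 to 57 and 19 to 47 without single libraries (29 and 19 without B6xPWK, 30 and 25 without B6xSPRET replicate 2). A hybrid left with no kidney library relied on its other tissues.

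The Umod start stayed higher in kidney without each hybrid, by 651 to 721 bp (exact permutation p = 0.003906, the smallest that 4 hybrids allow, not adjusted). The small difference at the Gm44588 start, 14.8 bp, turned to -61.5 bp at FDR 1%, -50.8 bp with the 75000 highest-scoring hotspots and -4.87 bp within 1 kb, and ranged from -78.3 bp (without B6xCAST) to 67.8 bp when single hybrids were left out, with -5.75 bp without B6xPWK. At the 6330410L21Rik start the difference was 1292 bp within 5 kb (exact permutation p = 0.0166, not adjusted) and 767 to 979 bp without single hybrids, and at the Egf start it was 444 to 641 bp, with the highest value in both without B6x129 (exact permutation p = 0.03906 and 0.04688, not adjusted). With the 75000 highest-scoring hotspots, the spans of Egf with 6330410L21Rik and with Gm42697 turned to -188 and -423 bp (exact permutation p = 0.849 and 0.687). By replicate number, no paired analysis was possible because the labels give no replicate numbers that groups share. With hybrid as a block in the kidney fit, added after seeing the data, the log2 fold changes were 14.37, 11.87 and 11.48 in the order above, and 1087 genes were higher and 439 lower. Low counts limit what can be read from some genes, Umod and Egf among them.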
